A study of Mus musculus with 18 samples.

Results

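The comparison is between miR-200 double knockout (DKO) keratinocytes and Cre-only control keratinocytes of the first of the study's 2 sets, which holds 9 of its 18 libraries and 210354 of its 1153545 chimeric reads. The method, CLEAR-CLIP, joins a miRNA to the RNA it sits on while both are held by an Argonaute protein, so that 1 chimeric read names the miRNA and the place it was bound to. The set 1 control group is labelled K14-Cre Only and has 6 libraries, and the set 1 DKO group has 3 libraries of mouse keratinocytes labelled miR-200 DKO. Both groups were cultured in E-low calcium medium, received 300 mJ/cm2 of 254 nm ultraviolet light and went through precipitation of Ago2 with the 2D4 antibody. The K14 promoter drives Cre in basal cells of stratified epithelia. Set 2, which ran on another flow cell and shares no control with set 1, is given beside it. It has 3 DKO libraries and 3 control libraries of cells that carry an inducible miR-200 gene and were left uninduced. Set and sequencing run cannot be told apart, and neither can knockout and Cre-only origin from anything else in which the 2 pools of a set differ.

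The libraries of each group were deposited as 1 pooled file with no library names. Each group is therefore 1 sample, no test between groups was possible, and the 95% intervals given below cover counting error only. The set 1 control pool held 161692 chimeric reads and the DKO pool 48662. The members described here are the reads of miRNAs outside the miR-200 family, 156514 in control and 48584 in DKO, and every share below is a percentage of these unless another total is named. A count of 3 reads corresponds to a share of 0.00192% in control and 0.00617% in DKO. Identical entries (same target position, strand, miRNA and barcode) found in another pool of the same lane made up 5.24% of control and 17.4% of DKO reads. A group of 9 miRNA names (miR-1195, miR-3470a, miR-5099, miR-706, miR-7667-5p, miR-709, miR-3473b, miR-6380 and miR-3470b) that is overrepresented in set 1 took 38.8% of control and 27.8% of DKO reads, against 3.71% and 4.30% in set 2. Leaving out these names multiplies every other miRNA's ratio by the same factor, so a miRNA at 1.18 times its control share, such as miR-31-5p, comes to 1.00, while ratios of genes move by differing amounts. Keratinocyte marker genes held 583 control and 262 DKO reads on 12 of 13 genes each. Fibroblast markers held 2 and 0 reads, melanocyte markers 12 and 5, immune markers 1 and 1, and endothelial markers 5 and 3.

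miRNAs guide Argonaute to messenger RNAs mainly through bases 2 to 8, the seed, and lower the output of the bound message. The miR-200 family comes from 2 clusters, one with miR-200b, miR-200a and miR-429 and the other with miR-200c and miR-141, and is known for holding cells in an epithelial state. In the epidermis, miR-203 is known to rise as cells leave the basal layer and stop dividing, while miR-205, miR-31 and miR-21 are abundant in basal or wounded keratinocytes. A chimeric read counts a meeting of miRNA, target and Argonaute, so the amount of a miRNA, the amount of its target and how often they meet cannot be told apart, and neither can fewer cells of a type and less RNA per cell.

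The mature sequences that the results turn on are printed here from RefSeq (GRCm38.p6), with the seed in capitals. Of 1738 miRNA names in set 1, 1459 matched 1 mature sequence. The first 5 are the deleted family, whose members carry 1 of 2 seeds that differ in a single letter; none of the other sequences shown shares either.
miR-200a-3p: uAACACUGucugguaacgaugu
miR-141-3p: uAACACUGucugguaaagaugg
miR-200b-3p: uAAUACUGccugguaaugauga
miR-200c-3p: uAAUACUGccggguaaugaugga
miR-429-3p: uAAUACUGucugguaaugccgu
The next sequences belong to keratinocyte miRNAs with leading shares or higher shares in DKO.
miR-203-3p: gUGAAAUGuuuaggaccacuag
miR-31-5p: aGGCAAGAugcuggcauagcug
miR-205-5p: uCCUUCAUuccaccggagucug
miR-21a-5p: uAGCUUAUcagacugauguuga
miR-23a-3p: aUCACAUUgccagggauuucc
miR-27a-3p: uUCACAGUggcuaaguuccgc
miR-24-3p: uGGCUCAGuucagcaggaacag
let-7b-5p: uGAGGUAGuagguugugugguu
miR-16-5p: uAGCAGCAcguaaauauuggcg
miR-107-3p: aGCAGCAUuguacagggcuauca
The last set had lower shares in DKO and shows how several of these names resemble one another.
miR-3473b: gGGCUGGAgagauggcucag
miR-3473e: gGGCUGGAgagauggcucgua
miR-3473c: uCUCUCCAgcccccauaauaag
miR-7667-5p: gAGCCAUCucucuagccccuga
miR-3470b: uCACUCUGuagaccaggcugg
miR-1195: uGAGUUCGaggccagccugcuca
miR-1187: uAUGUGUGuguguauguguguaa
miR-574-5p: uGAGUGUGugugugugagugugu

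The deleted family held 5178 of all chimeric reads in the set 1 control and 78 in the DKO, a ratio of shares of 0.0501 (0.0395 to 0.0626). miR-200a had 3 reads in DKO against 195 in control, miR-429 had 4 against 386, miR-200b 10 against 801, miR-200c 22 against 1879 and miR-141 35 against 1866. Both clusters were thus at low counts in the DKO pool, with the highest member ratio at miR-141 (0.0623, 0.0433 to 0.0870). The family ratio was 0.0186 once reads found in another pool of the lane were left out. The set 2 ratio was 0.0539.

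Among the other miRNAs, a ratio of DKO to control share was called higher or lower where both pools together held at least 50 reads, the shares differed by at least 1.5-fold and the interval excluded 1. Of 248 miRNAs with 50 reads, 39 were higher in DKO (15.7%) and 64 were lower (25.8%). A call was kept where the interval also stayed on the same side of 1 with each combination of position, strand and miRNA counted once, without the 9 names, and without reads shared within the lane. This left 36 higher (14.5%) and 34 lower (13.7%); the 7 lower calls among the 9 names could not be kept, since those names have no value once left out. The median ratio over the 248 was 0.960. The largest higher calls were miRNAs of 1 rodent locus, most leading keratinocyte miRNAs were within 1.5-fold, and the lower calls included 7 of the 9 overrepresented names.

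**Figure D1:**
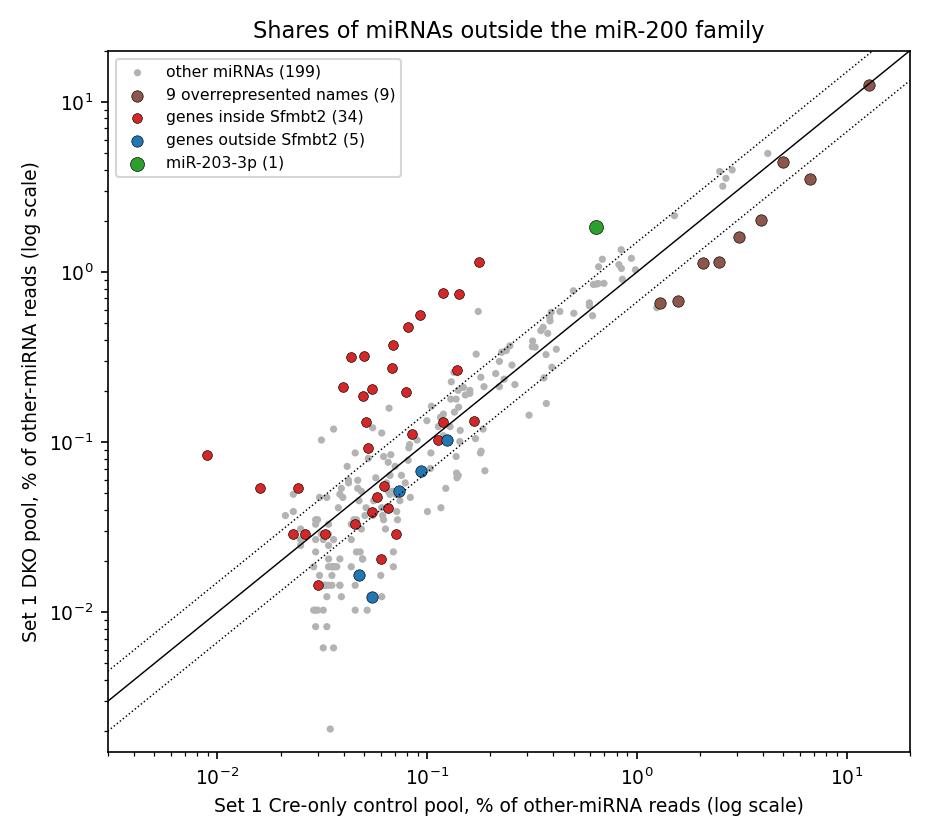
Share of each of 248 miRNAs outside the miR-200 family in the set 1 control pool (x axis) and the set 1 DKO pool (y axis), in percent of other-miRNA reads on log scales, 1 pool per axis. The solid line marks equal shares and the dotted lines a 1.5-fold difference; miRNAs from inside Sfmbt2 (red) reach a ratio of 9.43, miR-203-3p (green) lies at 0.638% and 1.84%, and 7 of the 9 overrepresented names (brown) lie below the lower dotted line.

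The largest ratios belonged to miR-466, miR-467 and miR-669, families of near-identical miRNAs whose genes lie in an array within the mouse gene Sfmbt2 (mm10, chr2:10370440-10595253), which encodes a Polycomb-group protein. The RefSeq annotation places 72 miRNA genes between positions 10466663 and 10518279 of that gene. miR-467a-5p, the most abundant of them in DKO, had 277 control reads and 555 DKO reads, 0.177% and 1.14%, a ratio of 6.45 (5.58 to 7.48). The other 7 of the 8 largest kept ratios among miRNAs with at least 100 reads over both pools also came from the array and pointed the same way. miR-466e-3p had 68 and 154 reads (7.30, 5.45 to 9.85), miR-467c-5p 78 and 157 (6.48) and miR-669o-3p 187 and 368 (6.34). miR-466c-3p had 145 and 273 reads (6.07), miR-467d-3p 127 and 232 (5.88), miR-467e-5p 108 and 181 (5.40) and miR-467d-5p 62 and 103 (5.35). In each of these 8 the DKO pool held more reads than the control pool although it was the smaller pool.

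The names miR-297, miR-466, miR-467 and miR-669 were then sorted by where their genes lie, a grouping chosen after the values had been seen. Over all measured miRNAs 15.7% were higher and 25.8% lower. Of 55 names whose genes lie only inside Sfmbt2, 34 had 50 reads, and 19 of these were higher and 2 lower (miR-466l-5p and miR-669k-5p), with a median ratio of 2.06. Their summed share was 2.57% in control (4016 reads) and 7.57% in DKO (3677 reads), a ratio of 2.95 (2.82 to 3.09). Of 9 names whose genes lie only elsewhere, 5 had 50 reads, none was higher, and miR-466i-5p (0.227) and miR-669n (0.348) were lower. These held 691 and 136 reads, a ratio of 0.634 (0.524 to 0.763). The remaining 6 names, at both places or without a place, had 3 higher calls, miR-297a-5p (3.35), miR-297a-3p (3.34) and miR-466f (2.41), and 1 lower, miR-466f-3p. Thus 19 of the 39 higher miRNAs had their genes only inside Sfmbt2. Because the sequences differ by few bases, how reads were divided between these names is uncertain, and the summed value does not depend on that division within the group.

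In set 2 the array was not higher in DKO. Its summed share was 6.09% in the uninduced control and 4.43% in the DKO, a ratio of 0.728 (0.710 to 0.746), so that the set 1 control pool had the lowest share of the 4 pools and the set 1 DKO pool the highest. In DKO the array's reads lay on 3302 combinations of position and miRNA in 1566 named genes, against 3471 in 1734 genes in control. The read sum was thus spread over many targets in both pools. Its leading DKO targets included the array's own Mir467b (10 control and 34 DKO reads), the heparan sulfate polymerase gene Ext1 (22 and 27), Sfmbt2 itself (16 and 22), the giant scaffold gene Ahnak (1 and 16), the chromatin gene Hmga2 (13 and 14), the proliferation marker Mki67 (4 and 12) and the ephrin gene Efna5 (56 and 12, a ratio of 0.690).

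**Figure D2:**
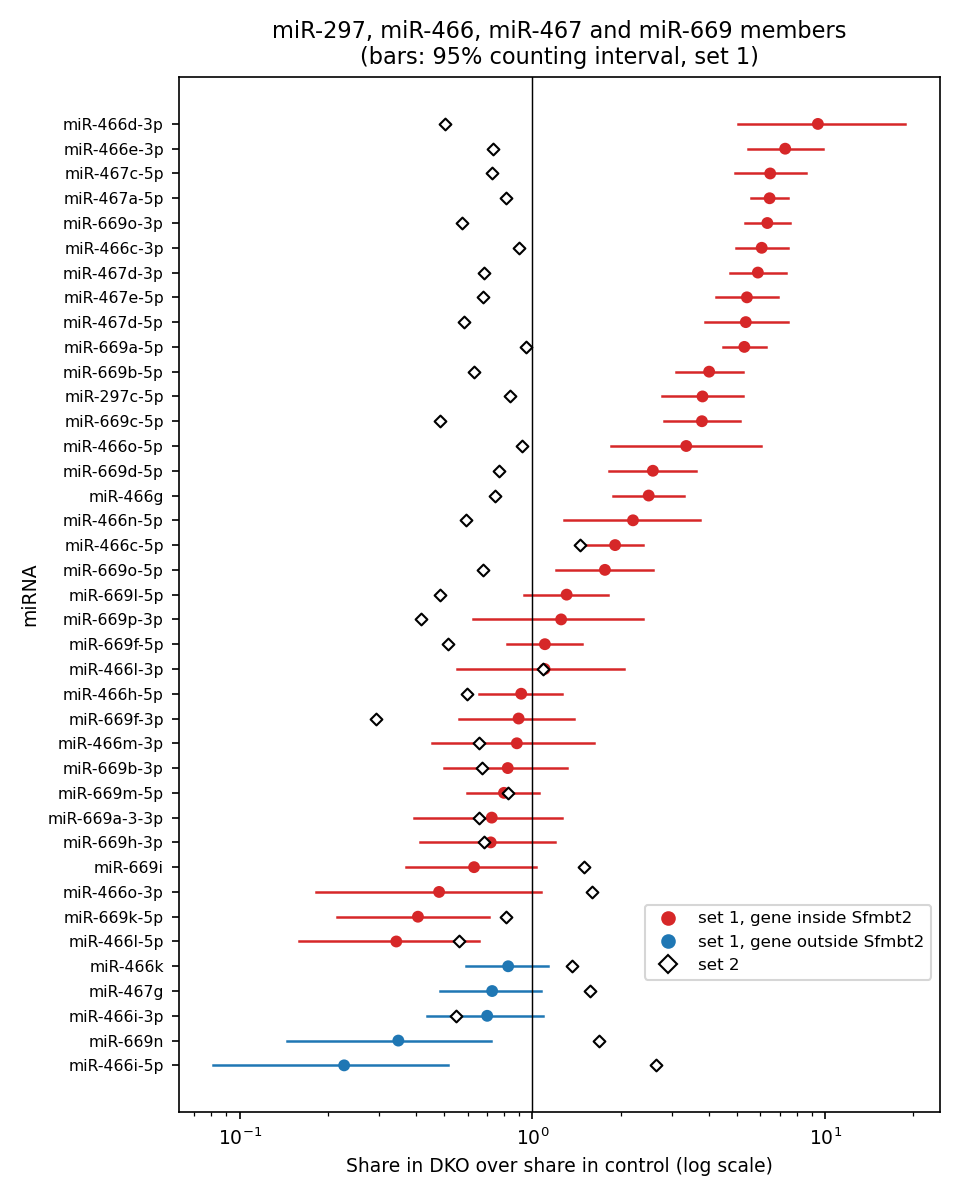
Ratio of the DKO share to the control share (log x axis) of the measured miR-297, miR-466, miR-467 and miR-669 names placed only inside (red) or only outside (blue) Sfmbt2, in set 1 with its 95% counting interval, and in set 2 (open diamonds). Of the names inside, 19 of 34 were called higher in set 1, beside 15.7% of all measured miRNAs. The median set 2 ratio of the names inside was 0.680.

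Away from the array, miR-203-3p was picked out for its ratio after its values had been seen. It had 998 control reads (0.638%) and 896 DKO reads (1.84%), a ratio of 2.89 (2.64 to 3.17) that ranged from 2.45 without the 9 names to 3.28 without shared reads. Its opposite strand miR-203-5p also had a kept higher call (2.15, 1.23 to 3.70). In DKO the miR-203-3p reads lay on 824 combinations in 469 named genes, and no gene took more than 1.45% of them. That gene was Macf1, a linker of microtubules and actin, with 1 control and 13 DKO reads, followed by the nuclear RNA Neat1 with 15 and 10, Ahnak with 9 and 10 and Trp63, the master regulator of basal keratinocytes, with 4 and 7. In set 2 the direction was the other one, with 1.48% in control and 1.11% in DKO (0.749).

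The widely expressed clusters of miR-24 with the a and b forms of miR-27 and miR-23 held 7.98% of control and 11.7% of DKO reads (1.46, 1.42 to 1.51). Of these 5 miRNAs, 2 were called higher, beside 15.7% of all measured miRNAs. miR-23a-3p had 3887 and 1896 reads (2.48% and 3.90%, 1.57, 1.49 to 1.66), and miR-27b-3p, named here for being called, was at 0.498% and 0.776% (1.56). miR-27a-3p (2.85% and 3.99%, 1.40) and miR-24-3p (1.51% and 2.14%, 1.42) lay just under the 1.5-fold limit. Set 2 had the same direction, with a summed ratio of 1.96.

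The 8 miRNAs listed as epidermal held 11.2% of control and 14.8% of DKO reads (1.32, 1.28 to 1.36), and miR-203-3p was the only 1 of 6 measured that was called. miR-31-5p, the most abundant after miR-709, miR-3470b and miR-706, had 6586 and 2420 reads (4.21% and 4.98%, 1.18). miR-205-5p had 4160 and 1729 (2.66% and 3.56%, 1.34), and miR-21a-5p 4019 and 1554 (2.57% and 3.20%, 1.25). Without the 9 names these 3 ratios were 1.00, 1.14 and 1.06, so their size rests on the total used. In set 2 miR-205-5p was at 1.97, and miR-31-5p and miR-21a-5p were at 0.688 and 0.852.

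Let-7, the large family that restrains growth genes such as Myc and Hmga2, had 4.19% of control and 5.95% of DKO reads (1.42, 1.36 to 1.48). Called higher were 2 of 9, beside 15.7% of all measured miRNAs. let-7b-5p was the larger of them at 0.684% and 1.19% (1.74, 1.57 to 1.93), while let-7a-5p (1.28) and let-7e-5p (1.35) were within 1.5-fold. miR-15 and miR-16, which act on cell cycle genes, were at 1.33% and 1.99% (1.5, 1.39 to 1.62), carried by miR-16-5p (0.841% and 1.35%, 1.61). The miR-17 seed group was at 2.24% and 3.00% (1.34) with no member called. Among smaller groups, miR-99b-5p (268 and 160 reads, 1.92) and miR-107-3p (86 and 59 reads, 2.21) were called higher and kept. None of these growth-related groups was below 1.

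Groups that did not stand apart were miR-26 (1.08, 0.968 to 1.21), miR-181 (1.05, 0.877 to 1.24), miR-29 (0.908, 0.794 to 1.04) and miR-196 (1.21, 0.919 to 1.57), whose intervals include 1. For 3 of these, set 2 was far from 1. The miR-29 group, known for collagen and other matrix targets, was at 0.339 there, miR-181 at 2.52 and miR-196 at 10.4. miR-196b-5p, which lies in the Hoxa cluster, had 10 control and 19 DKO reads in set 1 (6.12, 2.71 to 14.7) and a set 2 ratio of 89.6, both higher in DKO, although its 29 set 1 reads were too few for a call.

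**Figure D3:**
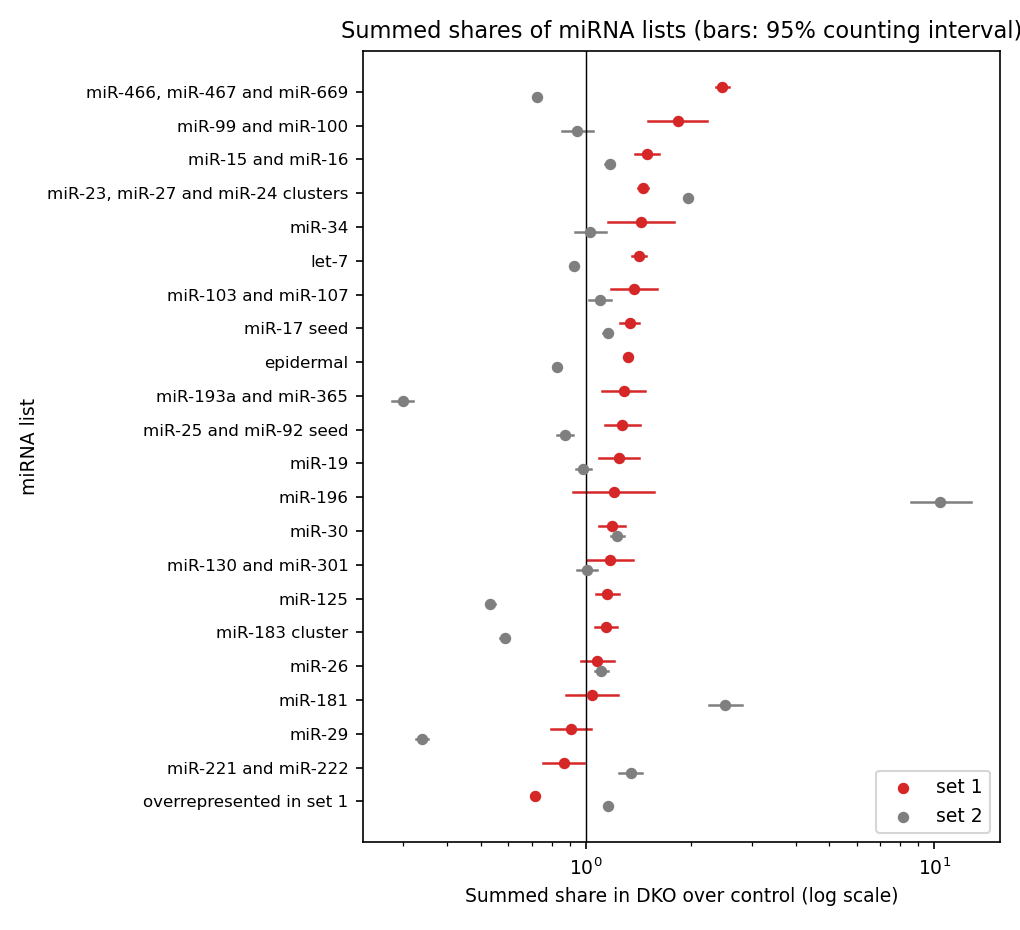
Ratio of summed DKO share to summed control share (log x axis) for each miRNA list with at least 200 reads over both set 1 pools, for set 1 (red) and set 2 (grey), with 95% counting intervals. The lists for miR-23, miR-27 and miR-24 lie above 1 in both sets (1.46 and 1.96), while miR-466, miR-467 and miR-669 lie at 2.46 and 0.727 and miR-193a and miR-365 at 1.28 and 0.299.

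Of the 9 overrepresented names, 7 were lower in DKO, at ratios from 0.434 (miR-5099) to 0.547 (miR-1195); these names were picked from these data. With each combination counted once, miR-5099 was at 1.34 (0.922 to 1.93). miR-3470b had 6.67% of control and 3.54% of DKO reads (0.531, 0.504 to 0.559), miR-3470a 3.90% and 2.02% (0.517), miR-3473b 3.08% and 1.60% (0.519) and miR-7667-5p 2.46% and 1.14% (0.465). The other 2, miR-709 (12.8% and 12.5%, 0.981) and miR-706 (4.96% and 4.46%, 0.900), were at these ratios with every read counted. Without reads found in another pool of the lane, miR-709 was at 0.580 (0.557 to 0.605) and miR-706 at 0.971 (0.924 to 1.02).

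The 8 lowest kept ratios with at least 100 reads belonged to miRNAs with at most 0.188% of control reads. These reached 100 reads mainly through the larger control pool, so their low DKO counts are partly set by that limit. miR-3473c had 95 and 6 reads (0.203, 0.0728 to 0.459), miR-5101 had 108 and 9 (0.268), miR-466f-3p 94 and 8 (0.274) and miR-7210-3p 108 and 11 (0.328). miR-466l-5p had 94 and 10 reads (0.343), miR-7000-3p 182 and 20 (0.354), miR-1191b-3p 295 and 33 (0.360) and miR-669k-5p 111 and 14 (0.406). Several of the lower names share stretches of sequence. miR-3473b and miR-3473e share 18 bases, and miR-3473b can pair with 12 bases of miR-3473c and with 12 bases of miR-7667-5p. Over the measured miRNAs with a sequence, 15 of 15931 pairs of names held a complementary run of 10 bases or more, and of the 19 miRNAs in such pairs 11 were lower and 1 was higher, where 25.8% of all measured miRNAs were lower and 15.7% higher. A sequence was at hand for 179 of the 248 measured miRNAs. None of the kept higher miRNAs placed only inside Sfmbt2 was among the 179. The counts for complementary runs and for GUGUGU or UGUGUG therefore leave those higher miRNAs out. Of the 8 among the 179 holding GUGUGU or UGUGUG, 6 were lower, among them miR-1187 and miR-574-5p, 1 was higher (let-7b-5p) and 1 was neither (miR-466k). These are descriptions of the letters only, and no part of them in the lower shares was tested.

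miRNAs of other cell types were rare. The mesenchymal list, with miR-214-3p (40 and 2 reads) and miR-143-3p (32 and 1), held 112 control and 10 DKO reads (0.288, 0.134 to 0.549), and the muscle list 18 and 1. The blood list held 64 and 1, of which miR-155-5p, a miRNA of activated immune cells, made up 54 and 1 (0.0597, 0.00148 to 0.347). In set 2 miR-155-5p was at 0.115 and the blood list at 0.140. The mesenchymal list was at 0.900 there (0.344 to 2.23) and the muscle list at 1.25 (0.418 to 3.64). In set 1 these 3 lists were at higher shares in the control pool, at 0.0716% or less. The neural list held 68 and 29 reads (1.37, 0.857 to 2.15), of which miR-124-3p made up 16 and 13 (2.62, 1.16 to 5.80). The endothelial list held 8 and 5 (2.01, 0.518 to 6.98), with miR-126a-3p at 6 and 5 (2.68, 0.648 to 10.6). The embryonic list held 70 and 13 (0.598, 0.304 to 1.09). The part of these lists in the lower target genes below was not tested.

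Target genes were named by the midpoint of the target part, and 83.8% of control and 82.0% of DKO reads fell in 1 named gene. Of 702 genes with 50 reads, 61 were higher in DKO (8.69%) and 112 lower (16%), with a median ratio of 0.864. The calls kept under the same 3 alternatives were 35 higher (4.99%) and 46 lower (6.55%). To separate a gene's ratio from the mix of miRNAs, shares were also compared within each miRNA and combined (Mantel-Haenszel), and this interval stayed on the same side for 24 of the 35 and 34 of the 46. The higher genes included short epidermal genes. The lower genes had a median span (128 kb) near that of genes called neither way (112 kb).

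Sprr1b, a precursor of the cornified envelope of differentiated keratinocytes, had the largest kept ratio. It had 27 control and 43 DKO reads, 0.0173% and 0.0885%, a ratio of 5.13 (3.10 to 8.63), and 4.39 (2.71 to 7.13) when compared within miRNAs. miR-31-5p made up 22 reads in each pool, and 68.6% of the gene's reads lay at chr3:92437446-92437588 (minus strand), with 22 control and 26 DKO reads. In DKO 11 miRNAs were found on Sprr1b, against 4 in control. Its neighbour Sprr1a, with 17 and 19 reads (3.60, 1.77 to 7.37), had 86.1% of its reads at chr3:92484094-92484236, led by miR-27a-3p with 7 and 9. The set 2 ratios were 0.681 for Sprr1b and 1.37 for Sprr1a.

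Genes of the differentiated keratinocyte list as a whole had 188 control and 178 DKO reads, 0.12% and 0.366% (3.05, 2.47 to 3.76), and 2.51 (2.05 to 3.08) within miRNAs. Only Sprr1b and Notch1, the receptor that promotes the switch from basal to spinous cells (47 and 31 reads, 2.12, 1.31 to 3.42), had 50 reads, and both were called, beside 8.69% of all measured genes called higher. The other members with 20 reads had fewer than 50 and could not be called, and they reached 20 partly through their DKO reads. These were the transcription factor Grhl1 (10 and 16 reads), the homeodomain protein Hopx (9 and 12), corneodesmosin Cdsn (10 and 13), Sprr1a (17 and 19) and periplakin Ppl (28 and 12). In set 2 the list was at 0.242% of control and 0.171% of DKO reads (0.708).

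Basal and activated keratinocyte genes had 492 control and 244 DKO reads (0.314% and 0.502%, 1.60, 1.36 to 1.87). Of 6 measured, 4 were called higher, beside 8.69% of all measured genes. Krt14, the main basal keratin and the source of the promoter that drives Cre here, had 42 and 34 reads (2.61, 1.61 to 4.2). Krt6a, a keratin of activated cells, had 42 and 33 (2.53), Krt5, the partner of Krt14, 39 and 24 (1.98) and Trp63 42 and 23 (1.76). The integrin gene Itga6 (0.716) and the hemidesmosome collagen Col17a1 (1.18) were not called. Within miRNAs the list ratio came down to 1.17 (1.00 to 1.37), with Krt14 at 1.86, Krt6a at 1.81, Krt5 at 1.68 and Trp63 at 1.14. Set 2 lay at 1.26.

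Over all measured genes 8.69% were called higher and 16% lower. Of 23 desmosome and adherens junction genes, 12 had 50 reads. The whole list, with the members too small to call, had a summed ratio of 1.27 (1.13 to 1.43). Plakophilin Pkp1 (56 and 33 reads, 1.90) and desmoglein Dsg3 (36 and 22, 1.97) were higher, p120 catenin Ctnnd1 (126 and 24, 0.614) was lower, and the most targeted, desmoplakin Dsp, was not called (130 and 56, 1.39). The whole list of 36 focal adhesion and integrin genes, of which 18 were measured, had a summed ratio of 0.916 (0.824 to 1.02). Among them the cytolinker Plec was higher (56 and 32, 1.84), and actinin Actn4 (47 and 6, 0.411), parvin Parva (93 and 15, 0.520) and laminin chain Lama5 (46 and 5, 0.35) were lower. The most targeted, actinin Actn1, had 195 and 73 reads (1.21, 0.909 to 1.59). As whole lists, cell-cell contact genes thus lay above the set 1 total, and cell-matrix contact genes about at it. The difference between the lists was not tested. Set 2 ratios were, in the same order, 1.02 (0.958 to 1.08) and 0.841 (0.795 to 0.889).

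Of 23 commonly cited miR-200 targets, 4 had 50 reads. The summed ratio of the whole list for other miRNAs was 0.966 (0.778 to 1.19). Among the 4, only Jag1, a Notch ligand, was called (41 and 27 reads, 2.12, 1.25 to 3.53), with a set 2 ratio of 1.90. This stands beside 8.69% of all measured genes called higher. Qk, an RNA-binding regulator of splicing, had 58 and 18 reads (1.00), and Msn, which ties actin to the membrane, 65 and 12 (0.595, 0.292 to 1.11). Zeb1, Zeb2 and the other mesenchymal regulators belong to a list in which only Sparc, a matrix protein, was called, at 91 and 13 reads (0.460, 0.236 to 0.827). On Sparc miR-29a-3p had 47 reads in control and 1 in DKO, and 70.2% of its reads lay at chr11:55395408-55395584. Its set 2 ratio was 0.0990.

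The calls in the next lists stand beside 8.69% of all measured genes called higher and 16% lower. Of 4 measured cell cycle genes the p53 regulator Mdm2 was called higher (45 and 30 reads, 2.15). The inhibitor Cdkn1a, with 16 and 26 reads (5.23, 2.70 to 10.4), was below the 50-read limit. Zmat3, an RNA-binding target of p53, was second among the largest kept ratios with 23 and 28 reads (3.92, 2.18 to 7.13), although its set 2 ratio was 0.523 and that of Cdkn1a 0.467. Myc, which drives growth, was not called (75 and 35, 1.5, 0.977 to 2.27). Of 4 measured Wnt and hair follicle genes only Tcf7l1, a repressor of Wnt targets, was called (45 and 25, 1.79). Of 6 measured genes of the small RNA machinery only the decapping enzyme Dcp2 was (2.21). None of the 6 measured TGF-beta and BMP genes or the 5 measured EGF receptor and MAP kinase genes was called. The median ratios of these measured genes were 0.784 and 1.07, in the same order. As whole lists, with the members too small to call, the summed ratios were 1.03 and 1.19. Of 5 measured cytoskeleton genes Cdc42 was lower (0.382).

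The other genes with the largest kept higher ratios had varied roles. Anxa1, a membrane-binding anti-inflammatory protein, had 49 and 51 reads (3.35, 2.22 to 5.07), the lipid carrier Gltp 26 and 26 (3.22) and the small Y RNA Rny3 28 and 28 (3.22). Zfp36 (27 and 24, 2.86) and Zfp36l2 (34 and 28, 2.65) both encode proteins that send AU-rich messages to decay. Usp25 had 47 and 36 reads (2.47), the splicing regulator Ptbp3 34 and 24 (2.27) and the transcription factor Creb3l2 60 and 42 (2.26). For Creb3l2 the main place was chr6:37331863-37331925 (minus strand), with 19 and 23 reads (3.90, 2.03 to 7.57), and miR-92a-3p on this gene went from 8 to 16 reads. Among the 12 named higher genes, Krt14 (2.06) and Anxa1 (1.61) also had set 2 ratios above 1.5.

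The genes with the lowest kept ratios had few reads in DKO. They reached the 50-read limit mainly through the larger control pool, so their low DKO counts are partly set by how they were chosen. Ccbe1, a factor of lymphatic growth, had 167 control reads from 41 miRNAs and 9 DKO reads from 6 (0.174, 0.0780 to 0.338), and its set 2 ratio of 0.107 was also low. DNA polymerase alpha gene Pola1 had 51 and 2 reads (0.126), the BMP receptor gene Bmpr1b 54 and 3 (0.179), the histone methyltransferase gene Ehmt1 68 and 4 (0.190) and Phldb2 48 and 3 (0.201). The fatty acid elongase gene Elovl6 had 57 and 4 (0.226), Nsmce2 50 and 4 (0.258), Tenm4 46 and 4 (0.280) and Mtss1 57 and 5 (0.283). The cohesin gene Stag2 had 68 and 6 (0.284) and the retinoid receptor gene Rxra 61 and 6 (0.317). Of these 11, only Ccbe1 and Phldb2 (0.385) had set 2 ratios under 0.5, and Mtss1 was at 2.17 there. Igfbp3, which binds insulin-like growth factors, was picked out after its values were seen for the opposite pattern, with 150 and 16 reads (0.344) in set 1 and a set 2 ratio of 3.23.

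**Figure D4:**
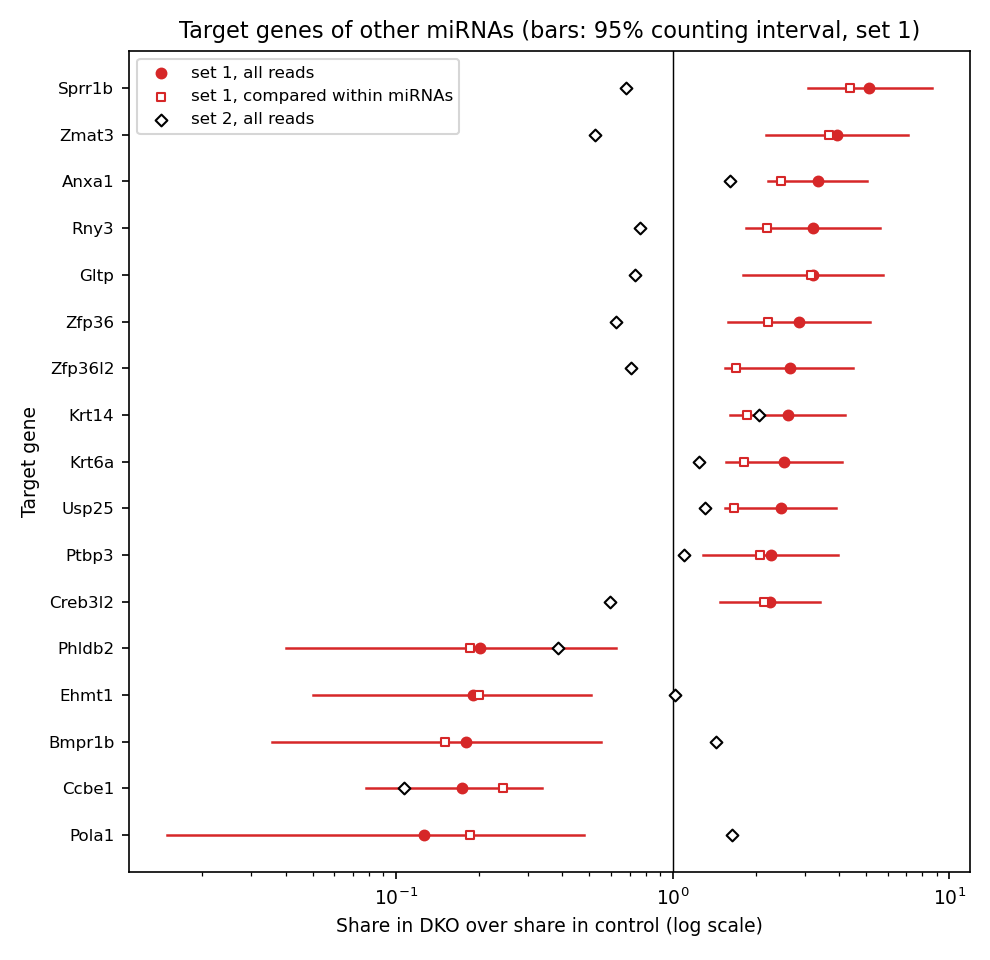
Ratio of the DKO share to the control share (log x axis) of the 12 genes with the largest and the 5 with the smallest kept ratios in set 1, over all reads with 95% counting intervals (filled circles), compared within miRNAs (open squares), and in set 2 (open diamonds). Sprr1b leads at 5.13 and Pola1 is lowest at 0.126, while in set 2 they lie at 0.681 and 1.64.

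Over all kept genes, the set 2 ratio lay in the same direction for 16 of 35 higher and 27 of 46 lower genes. Its interval was on the same side of 1 for 10 and 12 genes, and on the other side for 13 and 9. The median set 2 ratio was 0.981 for the higher and 0.951 for the lower genes. The gene calls of set 1 were thus about as often opposed as shared in set 2, and this was not tested.

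The called genes differed in length. The median span from first to last annotated base was 46.9 kb for the 58 protein-coding genes called higher, 112 kb for 513 called neither way and 128 kb for 103 called lower. Protein-coding genes spanning under 10 kb took 4.87% of protein-coding target reads in control and 7.28% in DKO (1.49, 1.43 to 1.56), a count added after the values had been seen. Without the 9 names the shares were 6.70% and 8.94% (1.33), and for those names alone 1.24% and 1.05% (0.841, 0.655 to 1.07). The higher share of short genes lay in the reads of the other miRNAs. In set 2 the shares were 7.94% and 7.31%. The 9 names also differed between call groups: the median kept higher gene had 7.84% of its reads from them and the median kept lower gene 31.5%, and their part in the calls beyond leaving them out was not tested.

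**Figure D5:**
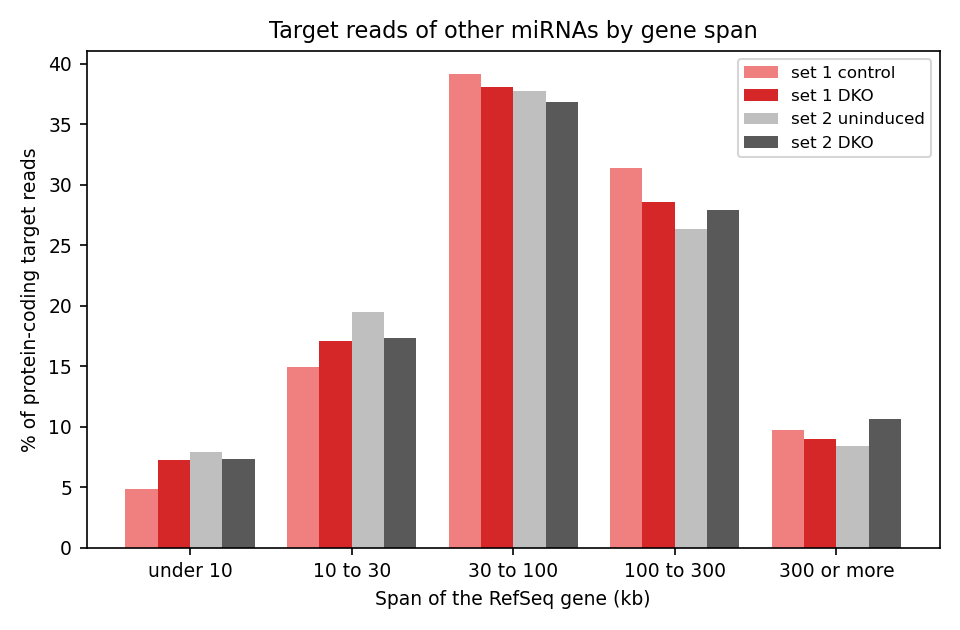
Percent of protein-coding target reads of miRNAs outside the miR-200 family (y axis) in genes of each span in kb (x axis), 1 bar per pool. Genes under 10 kb took 4.87% in the set 1 control and 7.28% in the set 1 DKO pool, and the set 1 control bar is the lowest of the 4 pools in that class.

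Several of the most targeted places were each the target of 1 miRNA. The places of miR-709 differed from one another in direction. Its reads on Gm34755 lay at a 48-base place, chr6:128799437-128799484 (minus strand), with 1176 control and 679 DKO reads, and the place as a whole was higher (1.85, 1.68 to 2.03). At LOC115490435, on the other strand nearby (chr6:128843315-128843396), miR-709 had 1075 and 68 reads, and this place was lower (0.203, 0.156 to 0.259). miR-709 also had 691 and 395 reads at a place in Sltm (chr9:70554651-70554726), higher at 1.85. Counting each combination once, or leaving out shared reads, changed the direction at some of these places, as given in the closing section.

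Other leading targets were RNAs rather than single sites. The 18S ribosomal RNA copy Rn18s-rs5 had 744 control and 353 DKO reads (1.53, 1.34 to 1.74) from 114 and 88 miRNAs, and 1.15 within miRNAs. Its pair with miR-205-5p was 1 of 2 pairs of gene and miRNA called higher and kept among 55 with 50 reads, at 65 and 50 reads (2.48, 1.68 to 3.64); the other was Tomm70a, a mitochondrial import receptor, with miR-23a-3p at 33 and 24 (2.34, 1.33 to 4.09). The 1 pair kept as lower was Ece1, an endothelin-converting enzyme, with miR-222-3p, at 58 and 0 reads, where 3 of 48584 reads would be 0.00617% and the exact interval of 0 reads ends at 0.00759%. Cldn4, a tight junction gene, with miR-31-5p was not called (104 and 43, 1.33, 0.911 to 1.92). Ccn2 with miR-30c-5p was lower (159 and 27, 0.547, 0.35 to 0.826), and in set 2 it had 5 control and 59 DKO reads.

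A few genes were read mostly by their own miRNA. Mir21a, at chr11:86584067-86584158, had 421 and 75 reads (0.574, 0.443 to 0.735), of which 388 and 68 were miR-21a-5p. The share of miR-21a-5p on its own gene was 9.65% of that miRNA's reads in control and 4.38% in DKO. let-7b-5p on Mirlet7b was at 6.26% and 1.21% of its reads (67 and 7). Reads at miRNA genes as a class were lower, at 1.51% and 1.09% (0.721, 0.655 to 0.792). Mitochondrial targets were higher, at 2.01% and 3.58% (1.78, 1.68 to 1.89), against 9.44% and 7.59% in set 2. Protein-coding genes took 77.1% and 75.2%, and targets outside annotated genes 12.9% and 13.0%.

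The comparison also bears on whether other miRNAs were more often found on RNAs that miR-200 binds. Target genes of miR-200 were chosen in set 2 uninduced cells, which the ratio does not use, as 333 genes with at least 10 miR-200 combinations, of which 206 were measured in set 1. Of these 206, 20 were higher and 24 lower, beside 8.69% and 16% over all measured genes; the share of higher calls is close to that background. Their median ratio was 0.980, against 0.827 over the other 496 measured genes. These medians were not compared at equal read numbers, and the median over genes changed with the read limit. It was 0.895 with at least 20 reads, 0.864 over all measured genes and 0.996 with at least 200 reads. Whether the medians of miR-200 target genes and other genes differ beyond read number was not tested. The summed share of the miR-200 target genes was 16.8% in control and 16.6% in DKO (0.986, 0.962 to 1.01). For the 83 genes with at least 20 miR-200 combinations the ratio was 1.07 (1.03 to 1.11). Among the 83, the 18S ribosomal RNA copy Rn18s-rs5 had 744 and 353 reads (1.53) and Neat1 870 and 212 (0.785). In set 2, whose uninduced pool was used to choose the genes, the ratios were 0.923 for the 333 genes and 0.878 for the 83.

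At the sites themselves, 1131 places with at least 5 miR-200 combinations in set 2, the miR-200 reads went from 1096 in control to 16 in DKO. Reads of other miRNAs overlapping the same places were 6901 and 2178, 4.41% and 4.48% (1.02, 0.968 to 1.07), and elsewhere in the same genes the ratio was also 1.02. At 427 stronger sites (at least 10 combinations) the ratio was 1.31 (1.22 to 1.42), beside 1.14 elsewhere in their genes. At the 1131 places miR-5099 alone made up 2442 control and 328 DKO reads, and without the 9 names the ratio there was 1.13. The 18S ribosomal RNA copy Rn18s-rs5 held 741 and 352 of the reads there (1.53, 1.34 to 1.74). Neat1 held 419 and 109 (0.838) and Mir21a 418 and 71 (0.547). Ratios without single genes were not computed. At the sites miR-205-5p was at 1.74 (1.34 to 2.23), miR-23a-3p at 1.62, miR-27a-3p at 1.35 and miR-31-5p at 1.33, while miR-21a-5p was at 0.744. Over all their targets these miRNAs were, in the same order, at 1.34, 1.57, 1.40, 1.18 and 1.25. In set 2 the ratio of other miRNAs was 0.812 at the 1131 places and 0.730 (0.711 to 0.749) at the 427. The set 2 uninduced pool was among those used to choose the places.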

How the data were processed

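The authors' deposited files hold neither counts nor signals but another kind of value, positions: an entry stands for 1 chimeric read and gives where its target lay in mm10, the strand, a barcode and a miRNA name. The tools were Novoalign, cutadapt and bedtools on mm10, per the submitters' processing notes; versions are not given in the sources used here. Libraries of a group are pooled without names, so each group was 1 sample.

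Reads were counted with Python 3.11.15, pandas 2.3.3 and numpy 2.4.6. Shares have exact Clopper-Pearson and ratios conditional exact 95% intervals (scipy 1.17.1), covering counting error only. Genes came from RefSeq spans of the same build; targets in several genes of 1 class were not named. Calls needed 50 reads, 1.5-fold and an interval excluding 1; this rule was tested on simulated data.

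The comparison, members and lists were chosen with earlier results of these data known. Named features were the 12 leading miRNAs and 15 leading genes, per direction the 8 largest kept miRNA ratios (at least 100 reads) and 12 largest kept gene ratios (1 gene is not reported here), the leading 3 of each list (genes with at least 20 reads), and for gene and miRNA pairs the 10 leading and the largest kept ratios. Others named in the text were chosen after their values were seen. Alternatives counted each combination once or left out the 9 names, shared reads, marked read names or target classes, and changed the limits; 2 more, on Sfmbt2 and on gene span, were added after the data were seen. Seed matches in targets were not analysed here.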

Additional observations from a re-analysis of the deposited data

Results flagged for a closer look

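For 10 lists the set 1 ratio of DKO to control share and the set 2 ratio lay on opposite sides of 1, each with an interval excluding 1. With 1 pool per group the difference between sets was not tested, and set cannot be told apart from sequencing run and kind of control. The value given is the set 1 ratio over the set 2 ratio.

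The differentiated keratinocyte genes had the largest such value, 4.31, from 3.05 in set 1 and 0.708 in set 2. miR-193a and miR-365 followed at 4.30 (1.28 and 0.299), and miR-466, miR-467 and miR-669 at 3.39 (2.46 and 0.727). miR-125 was at 2.16 (1.15 and 0.533) and the miR-183 cluster, whose miRNAs are known from sensory and epithelial cells, at 1.95 (1.14 and 0.586); for both, the set 1 ratio is below 1 without the 9 overrepresented names. The epidermal miRNAs were at 1.60 (1.32 and 0.825), let-7 at 1.53 (1.42 and 0.929) and the miR-25 and miR-92 seed group at 1.46 (1.28 and 0.872). The other direction held for miR-221 and miR-222 at 0.642 (0.865 and 1.35) and for the 9 names overrepresented in set 1 at 0.617 (0.716 and 1.16).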

How the results depend on the processing

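No paired analysis was possible because the pooled files carry no library names, and for the same reason no library could be left out. The family ratio of 0.0501 was 0.0186 without shared reads. The 39 higher miRNAs became 22 with at least 200 reads, 24 at 2-fold and 67 by the interval alone, and the 64 lower ones 42 with each combination once, 112 with at least 20 reads and 22 with at least 200. The 61 higher genes became 31 without the 9 names, 166 with at least 20 reads, 9 with at least 200 and 24 at 2-fold. The 112 lower genes became 50 with each combination once, 64 without the 9 names, 203 with at least 20 reads and 15 with at least 200. The ratio on miR-200 target genes (0.986) was 1.02 with each combination once, 0.95 without the 9 names, 1.03 without shared reads, 0.960 with at least 5 miR-200 combinations and 1.07 with at least 20. The ratio at miR-200 sites (1.02) was 1.37 with each combination once, 1.13 without the 9 names, 1.13 with at least 3 combinations and 1.31 with at least 10.

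Ratios that crossed 1 included the following. Without the 9 names they were 0.970 for the miR-183 cluster, 0.977 for miR-125, 0.998 for miR-130 and miR-301, 0.989 for the seed AGUGCAA, 0.959 for the seed CCCUGAG and 0.630 for Gm34755. Without shared reads Gm34755 was at 0.989, Sltm at 0.500, Rn4.5s-ps2 (1.28) at 0.352 and the protein-coding class at 1.02. With each combination once LOC115490435 was at 1.49, miR-5099 at 1.34 and Mir21a at 1.31. The causes were not tested. Of the values for single lists, classes, miRNAs and genes under other settings, 1187 moved by less than their counting interval and 176 by more. Crossing 1 was recorded apart only for called features, so the 176 include uncalled ones that crossed it. An example is miR-125b-5p, at 1.05 with every read counted and 0.888 without the 9 names.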
